A study of Mus musculus with 36 samples.

Results

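Day 7 of hypoxia was measured on 4 of the 36 spotted 2-colour cDNA arrays of a time course of hypoxic pulmonary hypertension, and the 4 arrays were taken as those titled as replicates 1 to 4 of that day. On each array, RNA from whole lungs of BALB/c mice kept at 0.5 atm for 7 days, pooled from 5 mice, was hybridised against RNA pooled from 5 time-matched control mice. The other 32 arrays, again 4 for each day, cover days 1, 3, 14 and 21 of hypoxia (16 arrays) and 4 days of recovery after 21 days of hypoxia (16 arrays), called here days 22, 24, 28 and 35 because they follow 1, 3, 7 and 14 days back at sea-level pressure. The mice carry no engineered allele in the labels, and every day had a control pool of its own.

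Each value is the base-2 logarithm of the ratio of hypoxic to control signal, so that 1 is a doubling and -1 a halving. That direction is likely but unproven: hypoxic RNA and Cy5 are each named first in the protocol, control RNA and Cy3 second, and no dye swap is recorded. A ratio gives no level, so the presence of lung cell markers could not be read from these values. As the labels describe 1 pool per condition and day, a feature of day 7 and a feature of its pools or of its controls cannot be told apart. The 4 arrays are not described as separate mice, so p-values reflect only how far arrays scatter, and that scatter may be technical. In the main fit the scatter was estimated over the arrays of all days, and not from the 4 day 7 arrays alone. An SD given with n = 4 is that of the day 7 arrays, so the p-value beside it does not follow from that SD. The whole lung was used, so fewer cells of a type and less RNA per cell cannot be told apart in any result below.

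Sustained low oxygen raises pressure in the pulmonary arteries of mice. The walls of small arteries thicken as smooth muscle cells and fibroblasts divide and deposit matrix, and red cell production rises under the hormone erythropoietin. Cells sense low oxygen through the HIF transcription factors, which switch on genes of glucose uptake, glycolysis, iron handling and vessel growth.

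Between 14186 and 14699 of the 15388 spots had a value on each day 7 array, and averaging the spots of a gene left 12126 genes or unnamed spots, together called features, with values on at least 3 of the 4 arrays. Of these, 4351 (35.9 percent) differed from control at a limma adjusted p under 0.05, 2477 higher (20.4 percent) and 1874 lower (15.5 percent). Their median absolute log2 ratio was 0.36, and 153 exceeded 1. When the 4 day 7 arrays were fitted alone, 1961 features differed at the same threshold. The 14 named genes that changed most in each direction, with the same sign on every array, are shown in the plot of genes by array.

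**Figure D1:**
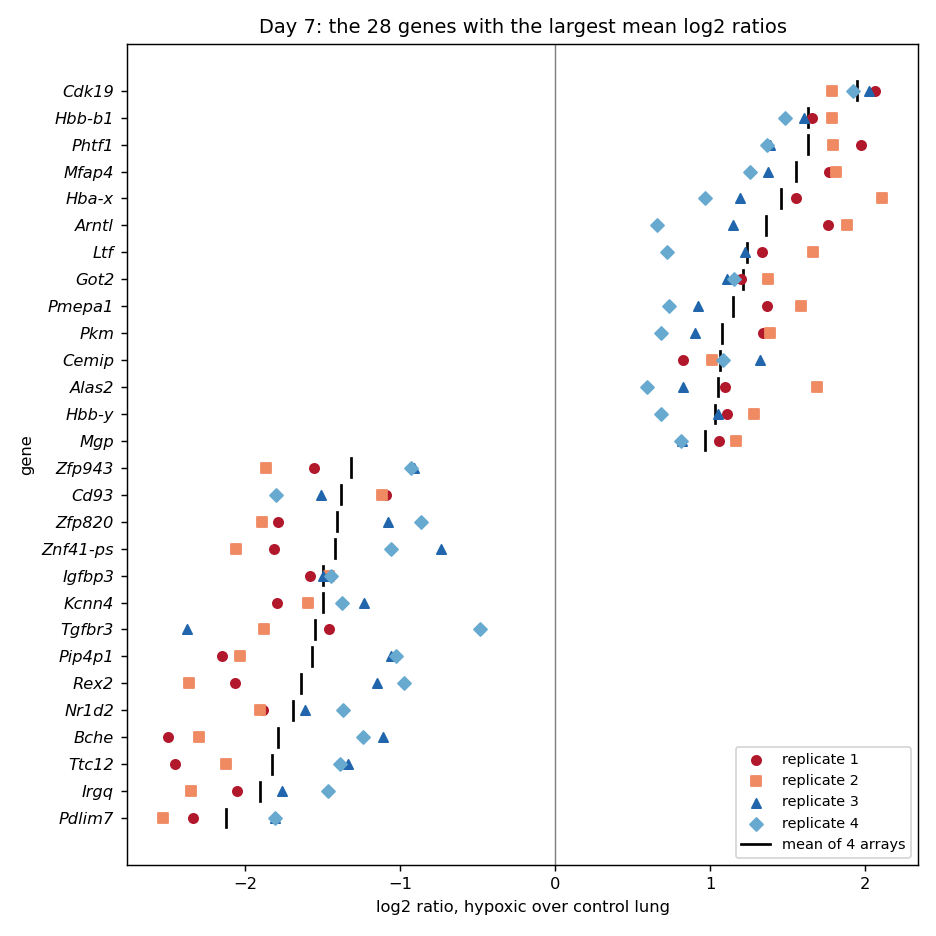
Log2 ratio of hypoxic over control lung at day 7 (horizontal axis) for the 28 named genes with the largest means past adjusted p 0.05; points are the 4 arrays and black ticks their means. Cdk19 lies between 1.79 and 2.06 and Pdlim7 between -2.53 and -1.81, and in no gene does an array cross 0.

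Cdk19, which encodes a kinase of the Mediator complex, had the highest mean of the named genes, with log2 ratios of 2.06, 1.79, 2.02 and 1.92 on replicates 1 to 4. The mean of 1.95 ± 0.12 (SD, n = 4) corresponds to a 3.86-fold higher signal in hypoxic lung (limma adjusted p = 2.5e-18). The 4 arrays lay close together, and the adult beta globin gene Hbb-b1 was as uniform, at 1.66, 1.79, 1.60 and 1.49 (mean 1.63 ± 0.12, SD, n = 4, 3.10-fold, adjusted p = 2.8e-15).

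Of 17 tested members of an erythroid list, 8 rose, 1 fell and 8 did not pass, against 20.4 percent higher and 15.5 percent lower of all features. Beside Hbb-b1 these included the embryonic globin genes Hba-x (1.46) and Hbb-y (1.03) and Alas2 (1.05), the erythroid enzyme that begins heme synthesis. Alas2 was uneven, at 0.83 and 0.59 on replicates 3 and 4, against 1.10 and 1.69 on replicates 1 and 2. The enzyme gene Alad, of heme synthesis as well, rose by 0.50, whereas the transferrin receptor gene Tfrc fell (-0.47) and Slc4a1, the red cell anion exchanger, stood at 0.12 (adjusted p = 0.39). Paralogs within a globin family are close in sequence, so the share of each cannot be read. All 29 spots annotated to a globin gene, of which 7 carry a single symbol, had day 7 means between 0.88 and 1.89.

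Phtf1 (1.63 ± 0.30) and Got2, a mitochondrial aspartate aminotransferase (1.21 ± 0.12; SD, n = 4 for both), stood beside the globin genes among the largest rises. Their values followed Hbb-b1 over the whole series. Across the 36 arrays Pearson's r with Hbb-b1 was 0.98 for Phtf1 and 0.98 for Got2, with 5 and 12 of 7555 other features higher, against 0.96 for Hbb-y and 0.35 for Cdk19. These correlations are given as a description, as the arrays of a day share their RNA pools. Whether the Phtf1 and Got2 spots carry globin sequence was not tested.

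Among genes that fell, Pdlim7, a PDZ and LIM domain protein of the actin cytoskeleton, had log2 ratios of -2.34, -2.53, -1.81 and -1.81 (mean -2.12 ± 0.37, SD, n = 4, 0.229 of control, adjusted p = 1.1e-10). Irgq, of a family of immunity-related GTPases, averaged -1.91 and Ttc12 -1.83. Bche, which encodes butyrylcholinesterase, was at -1.11 and -1.24 on replicates 3 and 4, against -2.50 and -2.30 on replicates 1 and 2. Rex2, Pip4p1, Znf41-ps, Zfp820 and Zfp943 showed the same unevenness, with all replicate 3 and 4 values nearer to 0. Pdlim7, Irgq and Ttc12 ran in parallel over the series, with r of 0.96 between Pdlim7 and Irgq and 0.95 between Pdlim7 and Ttc12 across the 36 arrays. Igfbp3, a carrier of insulin-like growth factors, was the most even of the 14 plotted genes that fell, at -1.58, -1.46, -1.50 and -1.45 (mean -1.50 ± 0.06, SD, n = 4, adjusted p = 1.0e-14).

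The 4 arrays fell into pairs. Across all spots, replicates 3 and 4 correlated with r of 0.71 and replicates 1 and 2 with 0.81, whereas the 4 combinations across the pairs gave 0.17 to 0.53. These are correlations across genes, which are not independent replicates. The mean of each pair was also set against control, with the scatter taken within pairs over the arrays of all days. That scatter leaves out differences between pairs and may be technical, so calls in a pair alone are not a replication. Replicates 3 and 4 alone called 4590 of 11420 features (40.2 percent), 2597 higher (22.7 percent) and 1993 lower (17.5 percent). Replicates 1 and 2 alone called 5025 of 11659 (43.1 percent), 2875 higher (24.7 percent) and 2150 lower (18.4 percent). Of 4072 features that were called at day 7 and measured on every array, 4037 had the same sign in both pairs (99.1 percent, against 61.9 percent of all features), which the averaging over the pairs favours. Of the same 4072, 2097 (51.5 percent) were called in each pair alone. In all, 2100 of the 10862 features tested in both pairs passed in each with 1 sign, 1057 higher and 1043 lower. Another 335 passed in each pair with opposite signs. Of the 28 genes in the plot by array 27 were called in each pair alone. The exception was the potassium channel gene Kcnn4 (largest adjusted p 0.073). The choice of these 28 by large means with 1 sign on every array favours such agreement.

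**Figure D2:**
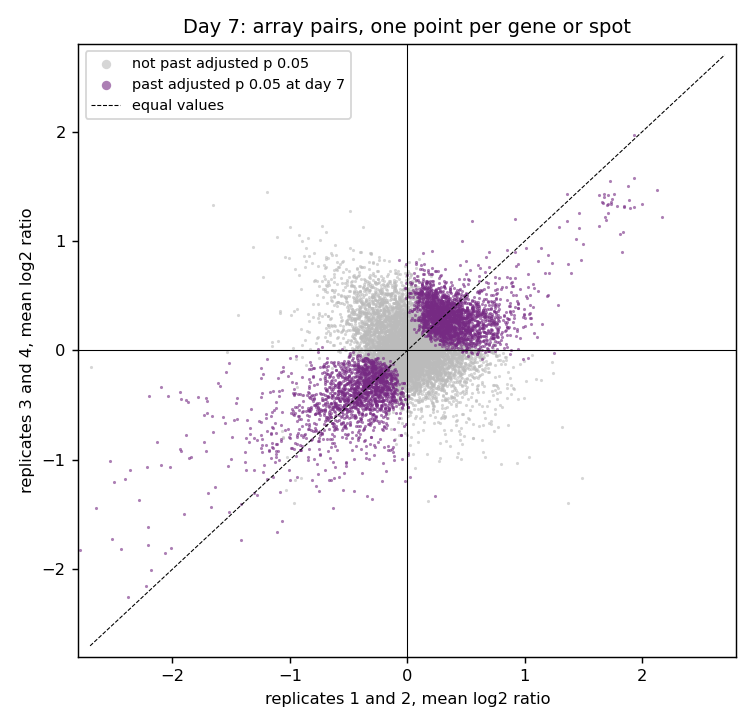
Mean log2 ratio of replicates 3 and 4 of day 7 (vertical) against that of replicates 1 and 2 (horizontal), 1 point for each gene or unnamed spot measured on all 4 arrays; purple points were called at day 7 and the dashed line marks equal values. Purple points lie in the upper right and lower left, and a grey arm runs through the quadrants where the pairs had opposite signs.

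The pairs themselves differed for 2539 of 10862 features (23.4 percent), 1265 higher (11.6 percent) and 1274 lower (11.7 percent) in replicates 3 and 4. Serac1 was at 1.07 and 1.18 on replicates 3 and 4, against -0.63 and -1.37 on replicates 1 and 2 (difference 2.12, adjusted p = 3.2e-04). Pramel6 and Caln1 differed in the same direction by 2.15 and 1.86. Sppl2b, a presenilin-like protease of the membrane, was at -0.12 and -0.41 on replicates 3 and 4, against 0.96 and 1.24 on replicates 1 and 2 (difference -1.36). None of these 4 genes passed at day 7 as a whole, and Sppl2b averaged 0.42. The same contrast of pairs recurred on other days: over all features its values at day 7 correlated with those at day 3 with r of 0.81 and at day 28, the least similar, with 0.41. Whether the pairs are separate hybridisation runs or RNA preparations is not given in the sources used here.

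Many cell division genes rose. Of 44 tested members of a cell cycle and mitosis list, 28 rose and 2 fell, against 20.4 and 15.5 percent of all features, and the list's median log2 ratio was 0.37, against 0.04 over all features. Replicates 3 and 4 alone gave 22 higher and 3 lower of 41, and replicates 1 and 2 alone 30 higher and 2 lower of 44. Cdk1, the kinase that drives entry into mitosis, had values of 0.91, 0.77, 0.91 and 0.92 (mean 0.88 ± 0.07, SD, n = 4, adjusted p = 2.5e-08). Its partner cyclin gene Ccnb2 was at 0.82, 1.02, 0.85 and 0.69. Top2a, the topoisomerase that untangles replicated chromosomes, averaged 0.69 ± 0.18 and Cks2, a Cdk1-binding protein, 0.69 ± 0.31 (SD, n = 4 for both). Aurkb, a kinase of chromosome segregation, went the other way at -1.08 (adjusted p = 0.0061, and 0.14 in replicates 3 and 4 alone), although Incenp (0.32) and Birc5 (0.62), its partners in the chromosomal passenger complex, rose. Of 34 DNA replication genes 11 rose and 1 fell, among them Chaf1a, a chromatin assembly subunit (0.60), the ligase gene Lig1 (0.57), the thymidine kinase gene Tk1 (0.54), the helicase subunit Mcm6 (0.48) and Gmnn, which limits replication to 1 round per cycle (0.45). Chaf1a had 0.60 and -0.02 on replicates 3 and 4, against 0.84 and 0.98 on replicates 1 and 2, and did not pass in replicates 3 and 4 alone (adjusted p = 0.057).

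**Figure D3:**
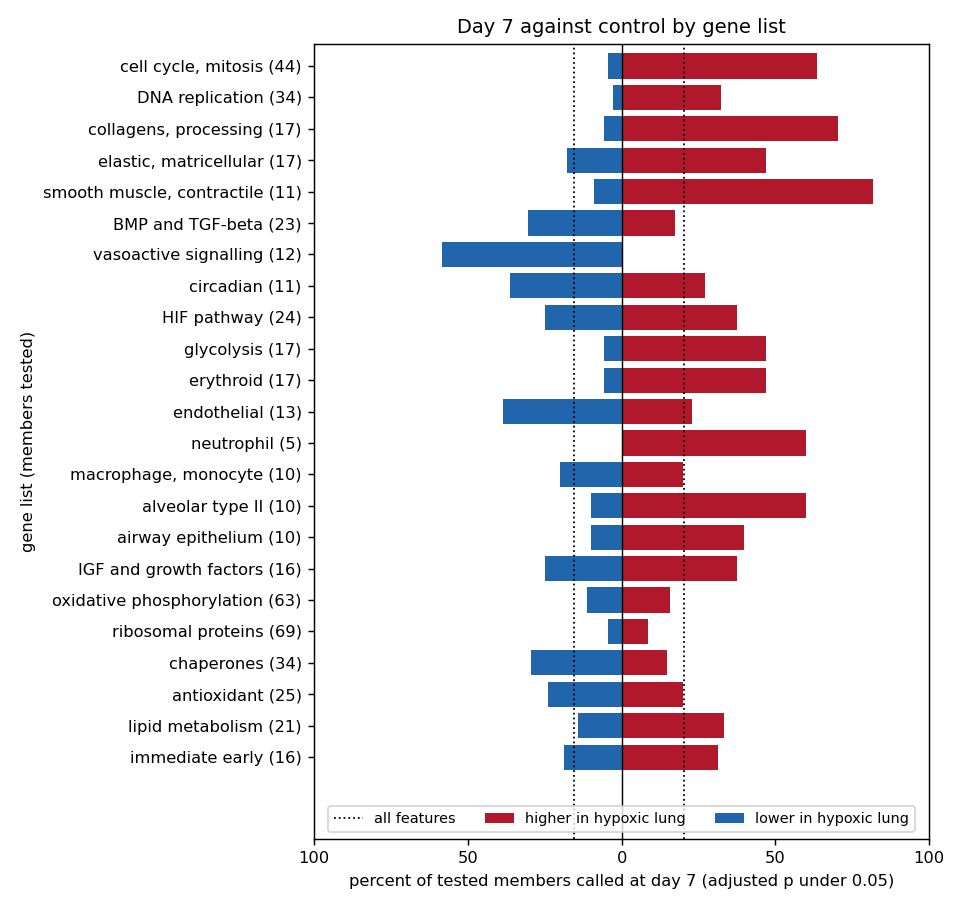
Percent of tested members of each gene list that were called higher (red, right of 0) or lower (blue, left of 0) in hypoxic lung at day 7, with the number tested in brackets. Dotted lines mark 20.4 percent higher and 15.5 percent lower over all features. The contractile, collagen and cell cycle bars reach furthest to the right and the vasoactive bar has no higher part.

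Many matrix genes rose as well. Of 17 collagens and collagen-processing genes, 12 rose and 1 fell, with a median of 0.48. Among all features 20.4 percent rose and 15.5 percent fell. Col4a2, a basement membrane chain, averaged 0.84, the fibrillar chains Col1a1 0.79, Col1a2 0.71 and Col3a1 0.65, and Sparc, a collagen-binding glycoprotein, 0.72. Col1a1 was at 1.00 and 0.79 on replicates 3 and 4, against 0.65 and 0.74 on replicates 1 and 2, and Col3a1 was between 0.60 and 0.74 on all arrays, although its 4 spots ranged from -0.11 to 0.95. Of 17 elastic fibre and matricellular genes, 8 rose and 3 fell. Mfap4, a microfibril protein, averaged 1.55 ± 0.28 (SD, n = 4, 2.93-fold), Mgp, an inhibitor of calcification, 0.96, the secreted matrix protein Spon2 0.94 and tenascin C (Tnc) 0.86. Dcn, the collagen-binding proteoglycan decorin and a marker of fibroblasts, was lower at -1.16, -1.12, -1.56 and -0.75 (mean -1.15, adjusted p = 2.8e-07). Of the other fibroblast markers, Pdgfra fell by 0.33, so that Dcn and Pdgfra opposed Col1a1; over the whole fibroblast and pericyte list 4 of 9 rose and 2 fell, with a range of -1.15 to 0.79. Its part in the matrix result was not tested.

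Of 11 contractile genes tested, 9 rose and 1 fell, against 20.4 percent higher and 15.5 percent lower of all features. None of the smooth muscle markers Acta2, Myh11, Tagln, Cnn1 and Des was among the genes tested. The part of smooth muscle cells in this result was not tested. Tpm2, a muscle tropomyosin, had the highest mean, at 0.63 ± 0.22 (SD, n = 4), with values of 0.45, 0.92, 0.71 and 0.46. The myosin light chain gene Myl6 averaged 0.61, the calponin gene Cnn2 0.49, filamin A (Flna) 0.48 (spots at -0.0063 and 0.72) and caldesmon (Cald1) 0.47. Myl6 stood at 0.26 and 0.19 on replicates 3 and 4, against 0.91 and 1.10 on replicates 1 and 2, and with Flna it did not pass in replicates 3 and 4 alone (adjusted p = 0.086 for Myl6 and 0.12 for Flna). In that pair 5 of the 11 rose and none fell, against 8 higher and 1 lower in replicates 1 and 2. When arrays were scaled to a common spread, 5 of the 11 rose.

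Genes of bone morphogenetic protein (BMP) and transforming growth factor beta (TGF-beta) signalling changed in both directions, 4 higher and 7 lower of 23. The shares of all features were 20.4 percent higher and 15.5 percent lower. Of the receptors, Tgfbr3, Bmpr2 and Bmpr1a (-0.49) fell, whereas Tgfbr1 stood at -0.13 (adjusted p = 0.15) and Tgfbr2 at -0.08 (adjusted p = 0.44). Tgfbr3, a TGF-beta co-receptor, was at -1.46, -1.88, -2.38 and -0.48 (mean -1.55 ± 0.80, SD, n = 4, adjusted p = 6.4e-08). Bmpr2, the BMP receptor mutated in heritable pulmonary arterial hypertension in humans, was at -0.97 and -0.88 on replicates 3 and 4, against -1.38 and -1.39 on replicates 1 and 2 (mean -1.16, adjusted p = 8.0e-08). Every array was below 0 for Tgfbr3 and Bmpr2, and Smurf2, a ubiquitin ligase of TGF-beta and BMP signalling, averaged -0.91 ± 0.08 (SD, n = 4). Id2, a target of BMP signalling, averaged -0.51 and passed in replicates 3 and 4 alone, but not in replicates 1 and 2 alone (adjusted p = 0.38). Pmepa1, a feedback inhibitor of TGF-beta signalling, rose to 1.15, with 0.92 and 0.73 on replicates 3 and 4 and 1.36 and 1.59 on replicates 1 and 2.

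Of 12 vasoactive signalling genes tested, none rose and 7 fell by limma, with a median of -0.24. Among all features 20.4 percent rose and 15.5 percent fell. The highest mean of the other 5 was 0.10, for the vasodilator peptide gene Adm, and none of them was higher at an unadjusted p under 0.05. Replicates 3 and 4 alone called 1 higher and 7 lower, and replicates 1 and 2 alone 5 lower. Ednrb, the endothelin B receptor of endothelium, was at -1.15, -1.16, -0.93 and -0.76 (mean -0.999 ± 0.194, SD, n = 4, adjusted p = 2.5e-12). Rock1, a kinase of smooth muscle contraction, averaged -0.61 over 4 spots that ranged from -1.15 to 0.17. Gucy1a1, a subunit of the nitric oxide receptor, averaged -0.45 and Prkg1, the kinase downstream of it, -0.34. Gucy1a1 was at -0.31 and -0.10 on replicates 3 and 4, against -0.67 and -0.72 on replicates 1 and 2, and missed the threshold in replicates 3 and 4 alone (adjusted p = 0.072). Prkg1 lay between -0.40 and -0.32 on all arrays. Endothelial markers stood beside these as follows: 3 of 13 rose and 5 fell, over a range of -1.38 for Cd93 to 0.46 for Gja4 (adjusted p = 0.42 in replicates 3 and 4 alone), with Cdh5, the endothelial cadherin, at 0.16 (adjusted p = 0.033) and Emcn at 0.31 (adjusted p = 0.053). Their part in the vasoactive result was not tested.

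The HIF pathway list was split, with 9 of 24 members higher and 6 lower, against 20.4 and 15.5 percent of all features. Hk1, which begins glycolysis, averaged 0.77, the chemokine gene Cxcl12 0.64 and ceruloplasmin (Cp) 0.50, the last from 3 arrays. Igfbp3 and Pfkfb3, an activator of glycolysis, fell, Pfkfb3 at -0.80, -0.81, -0.83 and -0.65 (mean -0.77). Among classical targets, the glucose transporter gene Slc2a1 rose by 0.30 and Car9, a carbonic anhydrase, by 0.33, while Adm stood at 0.10 (adjusted p = 0.34) and Pdk1 at -0.06 (adjusted p = 0.70). Of 17 glycolysis genes 8 rose and 1 fell. Pkm, pyruvate kinase, was at 0.90 and 0.68 on replicates 3 and 4, against 1.34 and 1.39 on replicates 1 and 2 (mean 1.08, 2.11-fold, adjusted p = 1.3e-08). Hk1 and the lactate dehydrogenase gene Ldha (0.51) were also weaker in replicates 3 and 4, in which Ldha passed at an adjusted p of 0.043.

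Of 11 clock genes 3 rose and 4 fell, with the same counts in replicates 3 and 4 alone and in replicates 1 and 2 alone. All features gave 20.4 percent higher and 15.5 percent lower at day 7. The clock runs through the activators encoded by Arntl, Clock and Npas2, which bind the E-box CACGTG, and repressors that include Nr1d2. Arntl was at 1.15 and 0.66 on replicates 3 and 4, against 1.76 and 1.89 on replicates 1 and 2 (mean 1.36 ± 0.57, SD, n = 4, adjusted p = 3.7e-06), and Npas2 averaged 0.54. Nr1d2 was at -1.89, -1.91, -1.62 and -1.37 (mean -1.70 ± 0.25, SD, n = 4, 0.309 of control, adjusted p = 1.9e-14). Per3 was at -1.27 and -1.28 on replicates 3 and 4, against -0.52 and -0.58 on replicates 1 and 2, and Tef, a transcription factor under clock control, averaged -0.84. All 4 arrays had 1 sign for each of these 5 genes. Clock itself, an activator, was the fourth gene that fell, at -0.26 and 0.01 on replicates 3 and 4, against -0.25 and -0.30 on replicates 1 and 2 (mean -0.20, adjusted p = 0.010). The third gene that rose was Csnk1d, a kinase that acts on the PER proteins (0.22).

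Promoter windows of Tef, Nr1d2 and Per3, the clock genes that fell furthest, are shown because the E-box is the element the activators bind. Windows run from 250 bases before to 50 after a gene's start in RefSeq on the build GRCm38.p6, and are printed 5′ to 3′ on the gene's strand, with CACGTG and the core of the HIF element, ACGTG or GCGTG, in capitals on either strand; ACGTG lies within CACGTG.
Tef, first start, chr15:81802423-81802722, plus strand: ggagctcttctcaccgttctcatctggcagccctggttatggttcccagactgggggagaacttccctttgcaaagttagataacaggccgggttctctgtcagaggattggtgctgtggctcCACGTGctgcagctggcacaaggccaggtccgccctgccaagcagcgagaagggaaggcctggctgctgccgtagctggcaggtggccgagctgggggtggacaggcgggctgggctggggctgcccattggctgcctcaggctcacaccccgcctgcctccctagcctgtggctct
Tef, second start, chr15:81811164-81811463, plus strand: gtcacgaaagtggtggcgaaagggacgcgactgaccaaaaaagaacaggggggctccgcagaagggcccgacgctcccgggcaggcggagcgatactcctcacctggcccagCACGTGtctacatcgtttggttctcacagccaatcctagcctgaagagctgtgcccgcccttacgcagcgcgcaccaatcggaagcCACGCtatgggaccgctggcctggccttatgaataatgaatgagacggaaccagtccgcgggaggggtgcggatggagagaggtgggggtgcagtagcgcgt
Nr1d2, chr14:18239057-18239356, minus strand: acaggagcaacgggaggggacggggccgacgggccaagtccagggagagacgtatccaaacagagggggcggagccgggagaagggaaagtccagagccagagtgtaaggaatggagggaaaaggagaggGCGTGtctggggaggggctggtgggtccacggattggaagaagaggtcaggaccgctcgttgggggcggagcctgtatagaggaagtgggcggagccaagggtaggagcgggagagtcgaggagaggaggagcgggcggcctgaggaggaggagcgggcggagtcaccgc
Per3, chr4:151044616-151044915, minus strand: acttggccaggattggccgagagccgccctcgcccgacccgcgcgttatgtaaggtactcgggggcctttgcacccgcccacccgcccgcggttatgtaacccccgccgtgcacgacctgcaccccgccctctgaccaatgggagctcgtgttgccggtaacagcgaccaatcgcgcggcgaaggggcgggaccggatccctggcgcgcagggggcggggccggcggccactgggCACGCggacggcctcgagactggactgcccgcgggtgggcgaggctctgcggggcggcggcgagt

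Both Tef windows held CACGTG, beginning at -127 and -138 relative to the start, and the windows of Nr1d2 and Per3 held no CACGTG in these letters, nor did the 3 windows of Clock, which are not printed. Of 7 windows of the 4 clock genes that fell 2 held it, and of 3 windows of 2 clock genes that rose none did, against 2349 of 32851 windows of all genes (7.15 percent). The HIF core was in 6 of the 7 windows and in 43.8 percent of all windows. A match is a description of letters and not of binding.

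Of 5 neutrophil genes tested, 3 rose. Ltf, which encodes the granule protein lactoferrin, was at 1.22 and 0.72 on replicates 3 and 4, against 1.33 and 1.66 on replicates 1 and 2 (mean 1.24, adjusted p = 1.5e-10), Lcn2 averaged 0.85 and the receptor gene Csf3r 0.34. The abundant neutrophil gene S100a9 stood at -0.19 (adjusted p = 0.16). Of 10 macrophage and monocyte genes 2 rose and 2 fell, with lysozyme (Lyz2) at 0.55 (adjusted p = 0.34 in replicates 3 and 4 alone) and the oxidase subunit Cybb at -0.57. Among alveolar type II genes 6 of 10 rose and 1 fell, the cathepsin gene Ctsh at 0.58 and the mucin Muc1 at 0.48 above control and the phosphate transporter Slc34a2 at -0.99, while of 10 airway genes 4 rose, led by the keratin gene Krt19 (0.74), and 1 fell, the retinal dehydrogenase gene Aldh1a1 (-0.39). Over all features 20.4 percent rose and 15.5 percent fell. The 3 Slc34a2 spots disagreed, at 0.06, -0.49 and -2.53, so that 1 spot carried the mean. The type II transporter Abca3 did not pass (-0.05, adjusted p = 0.78).

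Other lists differed between the pairs of arrays. Among all features 20.4 percent rose and 15.5 percent fell at day 7. The shares were 22.7 and 17.5 percent in replicates 3 and 4 alone, against 24.7 and 18.4 percent in replicates 1 and 2 alone. Of 69 ribosomal protein genes 6 rose and 3 fell at day 7, but 4 rose and 11 fell in replicates 3 and 4 alone, against 21 higher and 3 lower of 68 in replicates 1 and 2 alone. Oxidative phosphorylation genes gave 10 higher and 7 lower of 63, with 2 higher and 7 lower in replicates 3 and 4, against 25 higher and 4 lower of 59 in replicates 1 and 2. Of 34 chaperone genes 5 rose and 10 fell, led by Dnajb9, an endoplasmic reticulum co-chaperone (-0.94), and Canx, calnexin (-0.57, over 4 spots from -1.61 to 0.06), with the small heat shock gene Hspb1 at 0.61. Antioxidant genes gave 5 higher and 6 lower of 25, with the metallothionein genes Mt1 (0.73) and Mt2 (0.68) above control. Nfe2l2, which encodes the regulator NRF2, was at -0.77, with 1 spot at -1.28 on 3 arrays and 1 at -0.45 on 4. Of 16 growth factor genes 6 rose and 4 fell, among them the cell cycle inhibitor Cdkn1c (0.53) and the growth factor midkine (Mdk, 0.73).

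Changes at day 7 were larger in size than on the other days. Over 11665 features with a mean at each day, the SD of the day means was 0.32 at day 7, against 0.23, 0.24, 0.28 and 0.16 at days 1, 3, 14 and 21 and 0.14 to 0.28 on recovery days. Day 7 correlated with the mean of the other hypoxia days with r of 0.86 across features, and its least-squares slope on that mean was 1.37. For days 1, 3, 14 and 21 the slope on the mean of the remaining 4, day 7 among them, was 0.78, 0.94, 1.01 and 0.52. The array SDs were 0.40 to 0.48 at day 7 and 0.17 to 0.52 on the other days. Whether the larger values are of biological or technical origin was not tested.

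**Figure D4:**
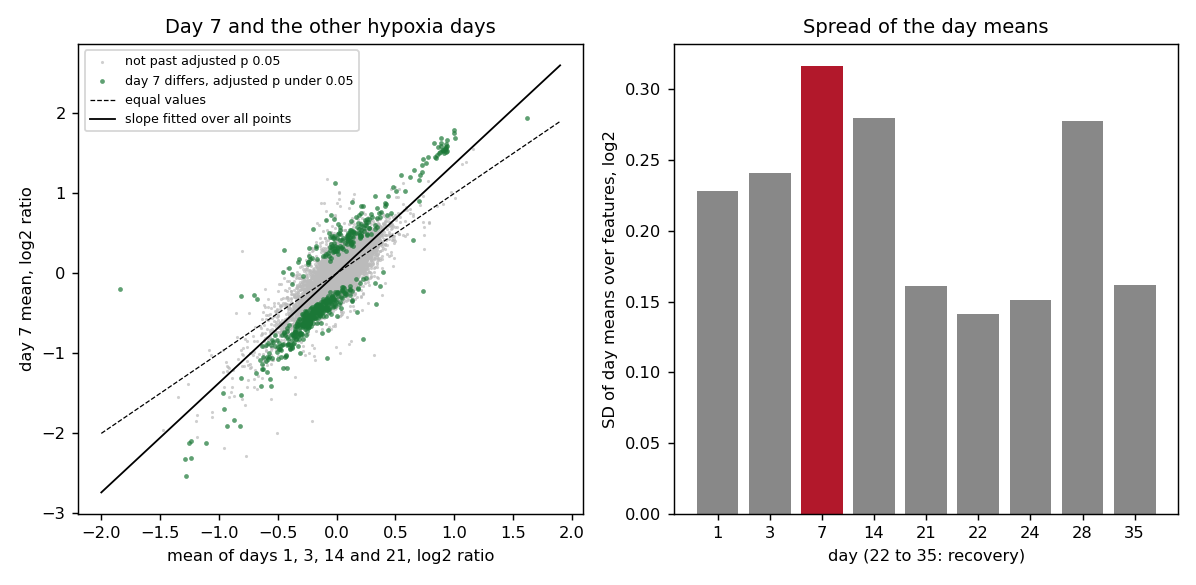
Left, mean log2 ratio at day 7 against the mean of days 1, 3, 14 and 21, 1 point per feature, with green points where day 7 differed at adjusted p under 0.05; the solid line has the fitted slope of 1.37 and the dashed line marks equal values. Right, SD of the day means over features for each day, highest at day 7 (0.32).

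Against the mean of the other hypoxia days, 538 of 11666 features differed at day 7 (4.61 percent), 195 higher (1.67 percent) and 343 lower (2.94 percent). Of these, 442 had the sign of the other days' mean and were larger at day 7, 9 had that sign and were smaller, and 87 had the opposite sign. Pdlim7 was at -2.12 at day 7, against -0.72 to -1.43 at the other 4 days, and Hbb-b1 at 1.63, against 0.52 to 1.26. Of cell cycle genes 9 of 44 were higher than at the other days, among them Cdk1 (difference 0.47 ± 0.11, SE, adjusted p = 0.0097) and Top2a (0.42 ± 0.08, SE, adjusted p = 8.6e-04). Cdk1 averaged 0.88 at day 7, against 0.23, 0.80, 0.16 and 0.45 at days 1, 3, 14 and 21, so that day 3 was nearly as high. Without day 1, 3 of these genes were higher, and with the pairs of arrays of a day as a random block 1 was (adjusted p = 0.17 for Cdk1 with this estimated correlation). The random block kept 101 of the 538 differences. When every array was first scaled to a common spread, 15 of the 538 differences were still called, and none of the cell cycle genes.

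Those 15 differences, 14 of them in named genes picked here after their values were seen, were called on both scales. Dach1, a transcriptional regulator, was the clearest. Its day 7 values of -0.80, -0.84, -0.75 and -0.88 (mean -0.82 ± 0.06, SD, n = 4) lay below control, against day means of 0.11, -0.07, 0.70 and 0.16 at days 1, 3, 14 and 21. The difference from the other hypoxia days was -1.05 ± 0.08 (SE, adjusted p = 1.1e-10), and recovery day means were between 0.18 and 0.89. Hmcn1, an extracellular hemicentin, averaged -0.39 at day 7, against 0.09 to 0.75 at the other hypoxia days, and Sema3c, a secreted guidance protein, averaged -1.05, against -0.55 to 0.48. Pik3r1, the regulatory subunit of PI 3-kinase, was between -0.39 and -0.33 on the 4 arrays, against day means of -0.05 to 0.08.

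A further 6 named genes of the 15 were lower at day 7 than the mean of the other hypoxia days. The splicing factor gene Srsf3 averaged -0.56 at day 7 and the translation factor gene Eif4g2 -0.56, against -0.42 to 0.15 and -0.29 to -0.11 at the other hypoxia days. Rbm3, a cold-inducible RNA-binding protein, was at -0.16, against 1.05, 0.23, -0.22 and 0.41 at days 1, 3, 14 and 21. Rbm3 was thus lower at day 14, and its difference of -0.53 from the other hypoxia days was -0.30 without day 1. Dnaja1, a partner of HSP70, was at -0.12, against 0.12 to 0.58, and Chordc1, which binds HSP90, at -0.19, against -0.01 to 0.48. Ttc14 averaged -0.93, against -0.46 to -0.23. At recovery day 22 Dnaja1 (-0.29), Chordc1 (-0.22) and Rbm3 (-0.18) were below their day 7 means, whereas Srsf3, Eif4g2 and Ttc14 were not. The array values of Dnaja1 spanned -0.14 to -0.10, a narrower range than the gap to any other hypoxia day.

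S100a9 showed the largest difference of day 7 from the other hypoxia days among the 15, at 1.65 ± 0.11 (SE, adjusted p = 4.6e-11). Not every array of the other hypoxia days had a value for S100a9. The difference was therefore tested in replicates 3 and 4 of every day alone (1.56), but not in replicates 1 and 2 alone. S100a9 was near control at day 7, with -0.29, -0.24, -0.16 and -0.07 on the 4 arrays, and at day 1 (0.31), but at -2.63, -2.72 and -2.32 at days 3, 14 and 21. It was at -2.97 and -3.25 at days 28 and 35. Of the neutrophil list, Ltf (difference 0.69) and Lcn2 (0.63) were also higher than at the other days, although Ltf reached 1.51 at day 3, and Lcn2 did not pass without day 14 (0.44, adjusted p = 0.14). Lcn2 was also lost without replicate 1 of day 7 (adjusted p = 0.11), without replicate 2 of day 7 (0.15) and with the random block (0.099). With arrays scaled, neither passed (adjusted p = 0.055 for Ltf and 0.64 for Lcn2). Adam8, a metalloprotease of myeloid cells, was at 0.57, 0.95, 0.49 and 0.64, against day means of 0.17, -0.13, -0.20 and -0.22 at days 1, 3, 14 and 21 (difference 0.76 ± 0.09, SE, adjusted p = 3.8e-06). Hmgb2, a chromatin protein of dividing cells, averaged 0.19, against -0.46 to -0.02, and Ms4a6d, a gene of macrophages, -0.27, against -1.59 to -0.08; the difference for Ms4a6d rested on day 14 and did not pass without it (0.14, adjusted p = 0.33). The whole macrophage list gave 2 of 10 higher and none lower than at the other days, and the part of neutrophil and macrophage numbers was not tested.

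**Figure D5:**
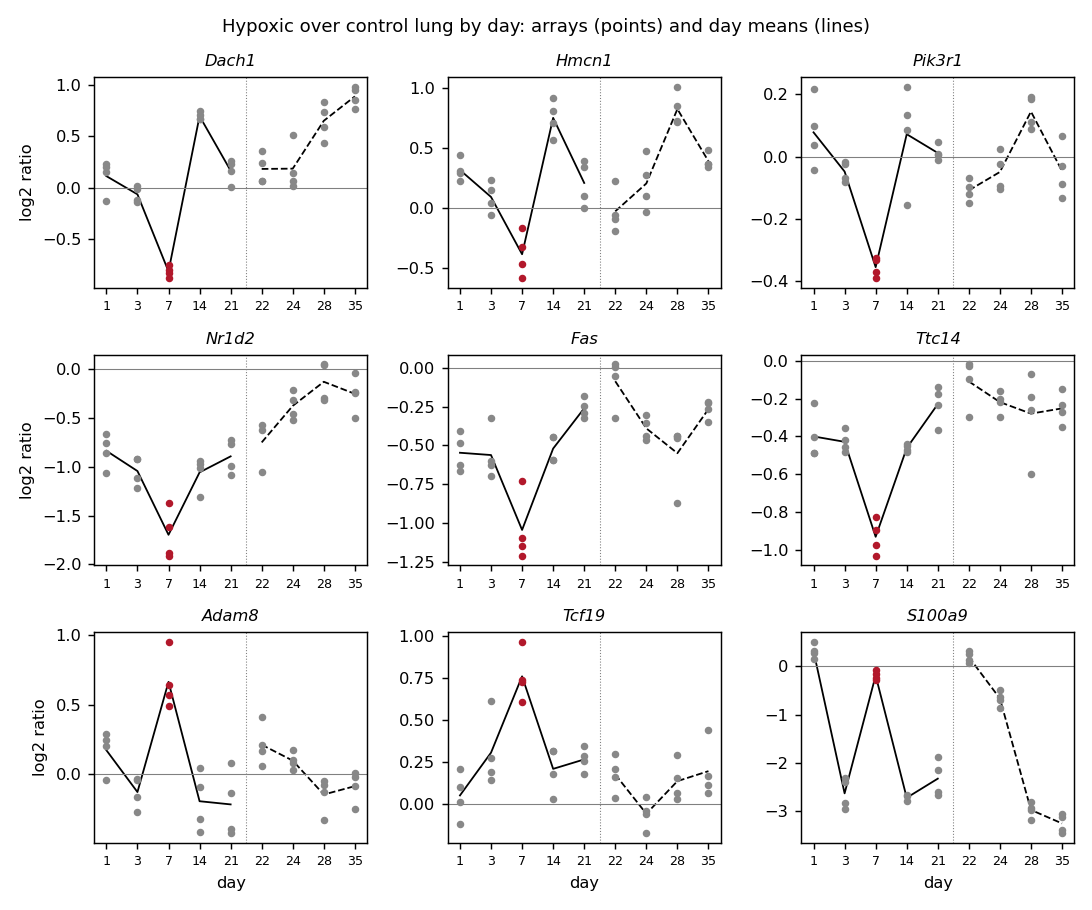
Log2 ratio of hypoxic over control lung by day for 9 genes, with each array as a point, day 7 in red, and day means joined separately over hypoxia (solid) and recovery (dashed). In 8 of the 9 genes day 7 is the lowest or highest day mean; S100a9 lies closest to 0 at days 7, 22 and 1.

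A stricter comparison asked which features differed at day 7 from each of the other 4 hypoxia days on their own, with 1 direction. There were 23 of 11666 (0.197 percent), 3 higher (0.0257 percent) and 20 lower (0.171 percent), and 21 of 11517 (0.182 percent) also differed in that direction from each of the 4 recovery days. The 3 higher genes were Rab24, a small GTPase of autophagy, Adam8 and Tcf19, a nuclear protein that rises in dividing cells. Rab24 had 3 array values, 0.54 on replicate 3 and 0.76 and 1.39 on replicates 1 and 2 (mean 0.90), against day means of 0.06 to 0.27. Tcf19 was at 0.74, 0.97, 0.73 and 0.61, against 0.05 to 0.30.

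The lower genes named by size were Dach1, Nr1d2, Fas, Hmcn1, Ttc14, Pde3a, Tmed7 and Zfp638. Fas, the death receptor, averaged -1.05 ± 0.22 (SD, n = 4), against -0.56 to -0.26 at the other hypoxia days. Pde3a, a phosphodiesterase that breaks down cyclic AMP in vessels and heart, was at -1.02, -1.14, -1.19 and -1.39, against -0.75 to -0.19. Nr1d2 averaged -1.70, against -1.06 to -0.84, and its smallest difference from another day was -0.64, from day 14. With arrays scaled to a common spread, Dach1 alone of the 23 was called. The same held with the pairs of arrays of a day as a random block.

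Recovery days gave a wider contrast. Day 7 differed from their mean for 2128 of 11827 features (18.0 percent), 1001 higher (8.46 percent) and 1127 lower (9.53 percent). With arrays scaled to a common spread, 604 were called, and with the pairs of arrays of a day as a random block 873 were. Cdk19 was 1.89 above the recovery mean (adjusted p = 1.4e-16), at 1.95 on day 7, against -0.15 to 0.28 on the 4 recovery days. Mfap4 was 1.23, Ltf 1.19, Pkm 1.01 and Col1a1 0.93 above recovery. Pdlim7 (-1.72), Ttc12 (-1.66), Irgq (-1.60) and Igfbp3 (-1.36) were below it. Hbb-b1 did not follow this contrast simply: it was at 1.63 at day 7, against 1.31 and 1.64 at recovery days 22 and 35 and -0.60 at day 28.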

How the data were processed

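Whole lung RNA of pooled hypoxic and pooled control mice was hybridised to spotted 2-colour arrays. The deposited values are log2 ratios that the authors made from median intensities after background correction, removal of flagged spots and lowess normalisation, per the labels' protocols. Their genome build is not given in the sources used here, and depth does not apply: the number of arrays limits the precision. Of 15388 spots, 9598 carried 1 gene symbol, 514 several and 5276 none, and 9510 matched RefSeq. Spots of 1 gene were averaged to 6971 genes, and with spots not named as 1 gene this gave 12761 features.

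Day means were fitted with limma 3.58.1 in R 4.3.3 over all 36 arrays, with Benjamini-Hochberg adjustment over all features, a threshold of 0.05 and at least 3 of 4 arrays. Day 7 was set against 0, against the mean of the other hypoxia days, against the mean of the recovery days and against each other hypoxia day. The mean of each pair, replicates 3 and 4 or replicates 1 and 2, was set against 0 in a second fit. It held a mean per day and pair over all 36 arrays, so its scatter was that within pairs. The fit was tested on simulated data with independent noise on every array, so that test does not cover the correlation within pairs of arrays. Named genes were the largest changes of each comparison with 1 sign, and up to 5 members of each of 30 gene lists; genes named otherwise were picked after their values were seen. The members and lists were chosen with earlier results of these data known. Arrays of different days with the same replicate number deviated together with r over 0.1 in 29 of 32 cases (lowest -0.02), as did those of the same pair in 28 of 32, against 0 of 64 across pairs. Deviations were taken from the mean of a day's arrays and sum to 0, so the count across pairs is not separate evidence. Deviations were thus shared between days, but no label ties a number to a shared animal or run and not every correlation passed 0.1, so the block was kept as an alternative. The main fit therefore treated the arrays of a day as independent, although they fell into pairs. Alternatives changed centring, scaling, the array minimum, spot averaging, blocks, and the arrays or days used.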

Additional observations from a re-analysis of the deposited data

Results flagged for a closer look

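For 7 of 171 genes checked, 1 of the 4 day 7 arrays stood far from the other 3, and chance flags about 1 in 20 groups. The distant value was 0.77 for Cdk1, -0.65 for Pfkfb3, -0.48 for Nfe2l2 and -0.52 for Dnajb9. For Nfe2l2, 1 spot averaged -1.28 but had values on 3 arrays only, and 1 averaged -0.45 on 4. It was -0.46 for Ndufaf4, an assembly factor of respiratory complex I, -0.37 for Igfbp7, a secreted binding protein, and -0.37 for Srsf3. All 7 means kept 1 sign on the 4 arrays. Replicate 2 had an SD of 0.48 over its spots, far from the other day 7 arrays.

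Of the 23 features in which day 7 differed from each other hypoxia day by the test of the difference itself, 11 were named by size, and the smallest of the 4 differences is given here. It was 0.62 for Rab24, 0.49 for Adam8 and 0.46 for Tcf19. It was -0.75 for Dach1, -0.64 for Nr1d2, -0.48 for Fas, -0.48 for Hmcn1 and -0.47 for Ttc14. It was -0.44 for Pde3a, -0.42 for Tmed7, a protein of vesicle transport, and -0.42 for Zfp638. With arrays scaled to a common spread, Dach1 was the 1 gene of these still called. The same held with the pairs of arrays of a day as a random block.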

How the results depend on the processing

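With arrays scaled to a common spread, 2654 features were called at day 7, 15 against the other hypoxia days, 604 against recovery, 1 against each hypoxia day and 670 between the pairs of arrays. With the 4 arrays of day 7 alone, 1961 were called against control and 441 between the pairs, 341 higher and 100 lower in replicates 3 and 4. With the pairs of a day as a random block (estimated correlation 0.42), 2915 were called against control, against 4351 in the main fit. This block gave 101 against the other hypoxia days, 873 against recovery and 1 against each hypoxia day. The replicate block gave 1022 against the other hypoxia days and 58 against each of them, and a block for the pair shared by the days, chosen after seeing the data, 1094 and 69. Replicates 1 and 2 of every day alone gave 250 and 2, and replicates 3 and 4 alone gave 9 against each hypoxia day. Leaving out 1 of the 4 arrays of day 7 gave 234 to 615 against the other hypoxia days and 1377 to 2269 against recovery. It gave 5 to 31 against each hypoxia day, and the lowest counts came without replicate 2 of day 7. Without day 21, 321 were called against the other hypoxia days, and without day 1, 3 or 14, 44, 71 and 35 against each of those left, where fewer days are required. Cdk19 turned to -0.0936 against the other hypoxia days with arrays scaled (adjusted p = 1.00), and Mt2 to -0.0143 without day 14 (adjusted p = 0.97). The cause was not tested. The other counts were within 1.5 times. Nothing here separates biological from technical spread between arrays.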

Other observations

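Metallothionein genes, which bind zinc and copper, stood above control at day 7 and differed from the other hypoxia days through day 14 alone. Mt1 averaged 0.73 at day 7, against 0.82, 0.39, -1.92 and 0.52 at days 1, 3, 14 and 21. Its difference from the other hypoxia days was 0.78 (limma adjusted p = 0.012), and 0.16 without day 14 (adjusted p = 0.76).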
